A study of Mus musculus with 8 samples.

Results

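To describe how far a stromal line of the spleen expresses the machinery of epithelial cell contacts, 9 genes of tight junctions and desmosomes were examined: F11r, Jam2, Jam3, Tjp1, Pkp1, Pkp2, Pkp4, Dsp and Jup. They were taken by symbol from the 12589 genes with a value, and all 9 were found. The set was selected on the known place of the proteins in cell contacts, with values of the deposited comparison of BMS493 with DMSO in view, and nothing is tested on it here. The cells were mSSC-YFP, a mouse spleen stromal line that carries a yellow fluorescent protein and stands for 1 immortalized line only. The labels list 4 samples given the vehicle DMSO and 4 given BMS493, an inhibitor of retinoic acid (RA) signaling, for 48 h, and do not say whether they were separate cultures. The measurement used is the authors' mean log2 normalized RNA-seq level of each gene over all samples of both treatments. No sample's own value was analysed here. These means therefore carry no error, the depth of each sample was not analysed (the study's methods state only an average over samples), and the effect of BMS493 on the 9 genes was not tested.

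Tight junctions seal the space between neighbouring cells. Their membrane proteins are claudins, occludin and the junctional adhesion molecules (JAMs), which the scaffold ZO-1 ties to actin. Desmosomes join cells mechanically: the desmogleins and desmocollins span the membrane, and plakoglobin, the plakophilins and desmoplakin connect them to intermediate filaments. Fibroblast-like cells usually hold on to each other through adherens junctions, in which several of the same plaque proteins also take part.

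Per summed exon length, the 9 genes fell into 3 highly expressed genes (F11r, Jup, Tjp1), 3 of intermediate level (Pkp4, Jam3, Pkp2) and 3 low ones (Jam2, Pkp1, Dsp). To compare genes with each other, each mean was taken out of the log scale, divided by the summed length of the gene's exons and is given in normalized units per 1000 exon bases (close to CPM per 1000 bases). Its place among the 12387 genes with a value and a length is given as a percentile. Here and below, all genes means genes with a value, not every annotated gene. The median gene stood at 7.22 on this scale. Of the 9 genes, 5 were above that median, 3 were above the upper quartile of all genes and 3 were below the lower quartile. F11r stood 214-fold above Dsp on this scale, 224-fold per base of the longest transcript, 566-fold per coding base and 58.9-fold with no length correction. With no spread between samples, neighbours in this order could not be tested. The smallest steps were those from Pkp4 to Jam3, 1.06-fold, and from Jup to Tjp1, 1.15-fold. Both turned with the length used: Jam3 was above Pkp4 per base of the longest transcript and per coding base, and Tjp1 was above Jup with no correction. The 2 ends of the order also changed with no correction. F11r then stood at 0.859 of the level of Jup and 0.814 of that of Tjp1, and Dsp was 1.26-fold above Pkp1.

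**Figure D1:**
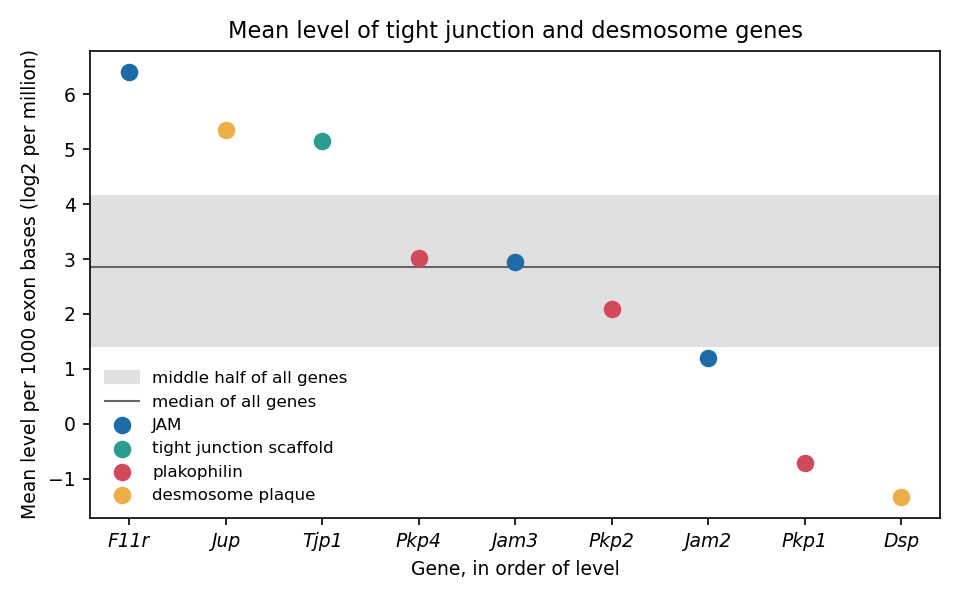
Mean level of each gene over all samples, per 1000 exon bases on a log2 scale, in descending order and coloured by family. The line is the median of the 12387 genes with a length and the band runs from their lower to their upper quartile. F11r, Jup and Tjp1 lie above the band, and Jam2, Pkp1 and Dsp below it.

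The RefSeq promoters (GRCm38.p6, 250 bases before to 50 after a start) of the 3 highest genes and of the lowest per exon base, Dsp, show the start regions that go with the 2 ends of this range. Capitals mark 6-base matches on either strand to GGGCGG (the GC box), to CAGGTG (the E-box read by Snail and ZEB factors), to AGGTCA (the half-site of retinoic acid receptors) or to TATAAA (the TATA box).

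F11r, chr1:171437311-171437610, plus strand: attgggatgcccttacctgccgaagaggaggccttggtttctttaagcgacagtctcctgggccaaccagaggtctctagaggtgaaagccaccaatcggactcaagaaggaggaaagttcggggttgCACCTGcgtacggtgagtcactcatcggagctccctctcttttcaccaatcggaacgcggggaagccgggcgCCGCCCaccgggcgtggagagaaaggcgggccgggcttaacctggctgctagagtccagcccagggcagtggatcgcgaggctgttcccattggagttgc

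Jup, chr11:100397741-100398040, minus strand: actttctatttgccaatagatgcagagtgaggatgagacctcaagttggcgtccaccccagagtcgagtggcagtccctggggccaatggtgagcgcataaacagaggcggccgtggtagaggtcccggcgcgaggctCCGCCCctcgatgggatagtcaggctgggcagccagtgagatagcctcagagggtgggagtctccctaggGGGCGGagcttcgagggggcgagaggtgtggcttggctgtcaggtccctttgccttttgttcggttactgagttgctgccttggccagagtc

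Tjp1, chr7:65371195-65371494, minus strand: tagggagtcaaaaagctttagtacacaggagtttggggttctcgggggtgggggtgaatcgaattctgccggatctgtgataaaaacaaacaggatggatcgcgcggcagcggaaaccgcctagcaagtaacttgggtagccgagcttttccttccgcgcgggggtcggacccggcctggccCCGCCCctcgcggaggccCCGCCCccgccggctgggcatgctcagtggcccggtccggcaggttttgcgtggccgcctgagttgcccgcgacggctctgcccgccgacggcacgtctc

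Dsp, chr13:38151044-38151343, plus strand: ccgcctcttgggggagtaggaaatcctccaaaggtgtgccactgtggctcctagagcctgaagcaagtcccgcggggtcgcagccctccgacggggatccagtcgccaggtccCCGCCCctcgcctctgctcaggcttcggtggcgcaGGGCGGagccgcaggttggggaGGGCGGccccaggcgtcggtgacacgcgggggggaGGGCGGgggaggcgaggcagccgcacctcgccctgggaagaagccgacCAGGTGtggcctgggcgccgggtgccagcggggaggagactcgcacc

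The Tjp1 window belongs to a start inside the annotated span of the gene. No matches overlapped in these windows, and all 4 were rich in G and C. Dsp, the lowest gene per exon base, had the highest share, 73.0%, with 27 CpG sites. Tjp1 had 65.3% and 31 CpG sites, Jup 60.7% and 14, and F11r 60.3% and 19, where the median of all 32851 RefSeq promoters was 52.7% and 7. A GC box occurred in each of the 4, with 4 matches in Dsp, 2 in Jup, 2 in Tjp1 and 1 in F11r, and 35.7% of all promoters held one. The E-box was present in F11r and Dsp, 1 match each, against 20.2% of all promoters. Neither the half-site nor the TATA box occurred in these windows, and 16.3% and 13.6% of all promoters held them. Pkp4 has 2 such windows, with 69.3% and 68.0% G and C and 27 and 34 CpG sites, the first with 6 GC boxes and the second with 1 E-box. Promoters of Jam2, Jam3, Pkp1 and Pkp2 were not among the RefSeq entries used and were not examined. Thus the highest and the lowest gene of the set per exon base shared a GC-rich window with a GC box and an E-box.

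Among the JAMs, immunoglobulin-like proteins that bind each other across cell contacts, F11r was by far the most abundant. F11r (JAM-A, also a ligand of the leukocyte integrin LFA-1) spans chromosome 1 from 171437535 to 171464603 (GRCm38, as for all genes here). Its mean was 7.82 on the log2 scale, which is 85.1 per 1000 exon bases and percentile 95.8. Jam3 (JAM-C), on chromosome 9 from 27097384 to 27155421, had a mean of 4.63 and 7.73 per 1000 exon bases, at percentile 52.1. Jam2 (JAM-B, the partner of JAM-C), on chromosome 16 from 84774123 to 84825928, had 3.80 and 2.30 per 1000 exon bases, at percentile 22.1. On the log2 scale per 1000 exon bases F11r stood 3.46 above Jam3 and 5.21 above Jam2, which is 37.0-fold for Jam2, and made up 89.5% of the summed level of the 3 JAM genes. The distance to Jam2 depended on the length used: it was 28.3-fold per base of the longest transcript, 17.5-fold per coding base and 16.3-fold with no correction. That to Jam3 was 7.06-fold per base of the longest transcript. For Jam3, an antisense gene, Gm48796, overlaps 36.2% of its exon bases, and whether reads were counted by strand is not given in the sources used here, so that reads of the 2 genes cannot be told apart.

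Tjp1, which encodes ZO-1, lies on chromosome 7 from 65296165 to 65527781. It had the highest mean of the 9 genes before correction for length, 8.12 on the log2 scale. Its exons sum to 7811 bases, and per 1000 exon bases it came after F11r and Jup, with 35.6 at percentile 87.9. In the tight junction as a whole, 36 of 64 listed genes had a value, the 4 of this set included. They were 25 of 26 plaque genes (Tjp3 was not analysed here) but 11 of 38 membrane genes. The share of all annotated genes with a value was not calculated. Counts of listed genes with a value, here and below, therefore describe the lists only. Of 21 claudins, which form the seal itself, 2 had a value, Cldn12 at 9.25 and Cldn1 at 1.86 per 1000 exon bases. Occludin (Ocln), another sealing protein, was at 0.667, or percentile 7.28. F11r was the highest of the 11 membrane genes, followed by Ildr2 with 15.9. In the plaque, Ybx3 (160) and Amotl2 (117) exceeded Tjp1 on the same scale, and Prkci, an atypical protein kinase C of cell polarity, was level with it (35.7). The median gene of the plaque list stood at 9.13 and that of the membrane list at 2.85, against 7.22 for all genes.

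Of the desmosome, 8 of 9 genes listed under the plaque had a value, of which Jup and Pkp4 lay above the median of all genes. Jup was the most abundant of them, and its product also serves adherens junctions. Jup, which encodes plakoglobin, lies on chromosome 11 from 100368958 to 100397763. Its mean was 8.04 on the log2 scale, or 41.0 per 1000 exon bases at percentile 89.6. Dsp, which encodes desmoplakin, the link to the filaments, lies on chromosome 13 from 38151294 to 38198577. Its mean was 1.94 on the log2 scale, and with 9659 exon bases, the longest of the set, this came to 0.398 per 1000 exon bases at percentile 3.52. An opposite-strand transcript, Gm10129, overlaps 5.17% of these bases. Jup stood 103-fold above Dsp per exon base, 205-fold per base of the longest transcript, 265-fold per coding base and 68.6-fold with no correction. Of the 9 desmogleins and desmocollins listed, which are the adhesive part of a desmosome, 0 had a value here. Genes listed without a value were not analysed, and whether a limit on low levels left them out is not given in the sources used here. Of the other genes on the plaque list, periplakin (Ppl) had 6.21 per 1000 exon bases and Perp, which encodes a membrane protein, 5.37. Evpl was not analysed here.

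The plakophilins are armadillo-repeat proteins of the plaque, of which Pkp1 is best known from epidermis, Pkp2 from heart and simple epithelia, and Pkp4 also from adherens junctions. Pkp4, on chromosome 2 from 59160850 to 59355208, was the highest, with a mean of 5.54 on the log2 scale and 8.16 per 1000 exon bases at percentile 53.7. Pkp2, on chromosome 16 from 16213318 to 16272712, had 4.51 on the log2 scale and 4.25 per 1000 exon bases at percentile 34.9. Pkp1, on chromosome 1 from 135871395 to 135919207, had 1.61 on the log2 scale and 0.606 per 1000 exon bases at percentile 6.57. Pkp3, which is not of the set, was lower still, with 0.368 per 1000 exon bases. Pkp4 thus held 61.0% of the summed level of the 4 plakophilins, Pkp2 31.7% and Pkp1 4.53%. Pkp4 lay 1.92-fold above Pkp2 and 13.5-fold above Pkp1. The lead of Pkp4 over Pkp2 depended on the length used. It was 1.30-fold per base of the longest transcript, 1.37-fold per coding base and 2.05-fold with no correction. Per base of the longest transcript, Pkp4 held 53.2% of the summed level and Pkp2 40.9%. The mean of a gene whose level differs between treatments lies between its 2 group levels.

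**Figure D2:**
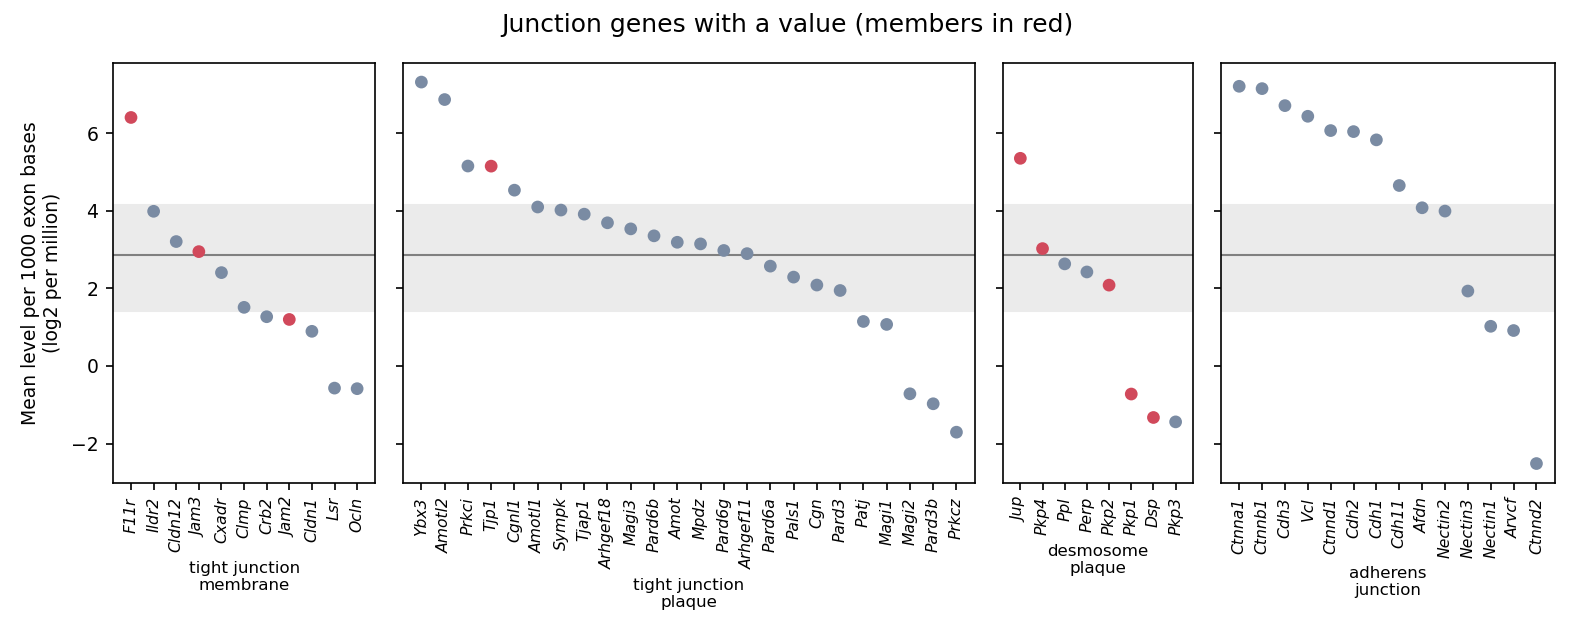
Mean level per 1000 exon bases, on a log2 scale, of tight junction, desmosome plaque and adherens junction genes with a value, sorted within each list, with the 9 genes of the set in red. The line is the median and the band the quartile range of all genes. F11r tops the membrane genes and Jup the desmosome plaque, and the adherens junction genes from Ctnna1 down to Cdh11 lie above the band.

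Jup, Tjp1 and Pkp4 also have partners in adherens junctions. In a list of 20 such genes 14 had a value, with a median of 37.9 per 1000 exon bases, and 10 of them were above the median of all genes. The catenins Ctnna1 and Ctnnb1 had 149 and 142, P-cadherin (Cdh3) had 105, vinculin (Vcl) 86.9 and p120-catenin (Ctnnd1) 67.3. Below the median of all genes were the adhesion molecules Nectin3 with 3.82 and Nectin1 with 2.03, and the catenin relatives Arvcf with 1.89 and Ctnnd2 with 0.175. N-cadherin (Cdh2) and E-cadherin (Cdh1), the classical cadherins of mesenchymal and of epithelial cells, were close to each other with 66.1 and 57.0. Before correction for length their means were further apart, at 9.06 and 8.03 on the log2 scale. Jup was thus at 41.0 beside 142 for its close relative beta-catenin (Ctnnb1). Of 10 genes of intermediate filaments, the structures to which desmosomes are connected, 7 had a value. Vimentin (Vim) had 743, Krt19 had 113 and nestin (Nes) 24.8, whereas Krt8, Krt14, Krt18 and Krt7 lay between 0.706 and 1.49.

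The label of the cells was examined with marker genes. All 10 stromal markers had a value, from 3.77 for Pdgfra to 743 for Vim, 1345 for Acta2 and 1521 for Col1a1 per 1000 exon bases. All 4 mesothelial markers, of which Krt19 is also an epithelial one, had a value too, with mesothelin (Msln) at 251, Krt19 at 113, Upk3b at 7.85 and Wt1 at 4.02. Of 11 epithelial markers 5 had a value, of which Krt19 and Cdh1 lay above the median of all genes, and Epcam, Esrp1 and Grhl2 were not analysed here. Endothelial markers had values for 2 of 7 genes, Kdr with 0.789 and Pecam1 with 0.222, and haematopoietic markers for 1 of 7, Cd74 with 0.717. Of the 10 stromal markers 9 lay above the median of all genes, and Pdgfra (percentile 32.0) lay below it. No other cell type was compared. Msln, Krt19 and Cdh1, and Cdh3 of the adherens junction list, stood beside the junction genes at high levels. Other mesothelial and epithelial markers did not: Upk3b was at percentile 52.5 and Wt1 at 33.5, and Krt8, Krt14 and Krt18 were at 15.6, 12.2 and 9.70. Of the 4 mesothelial markers 3 lay above the median of all genes. Whether the same cells carry both kinds of transcript was not tested.

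**Figure D3:**
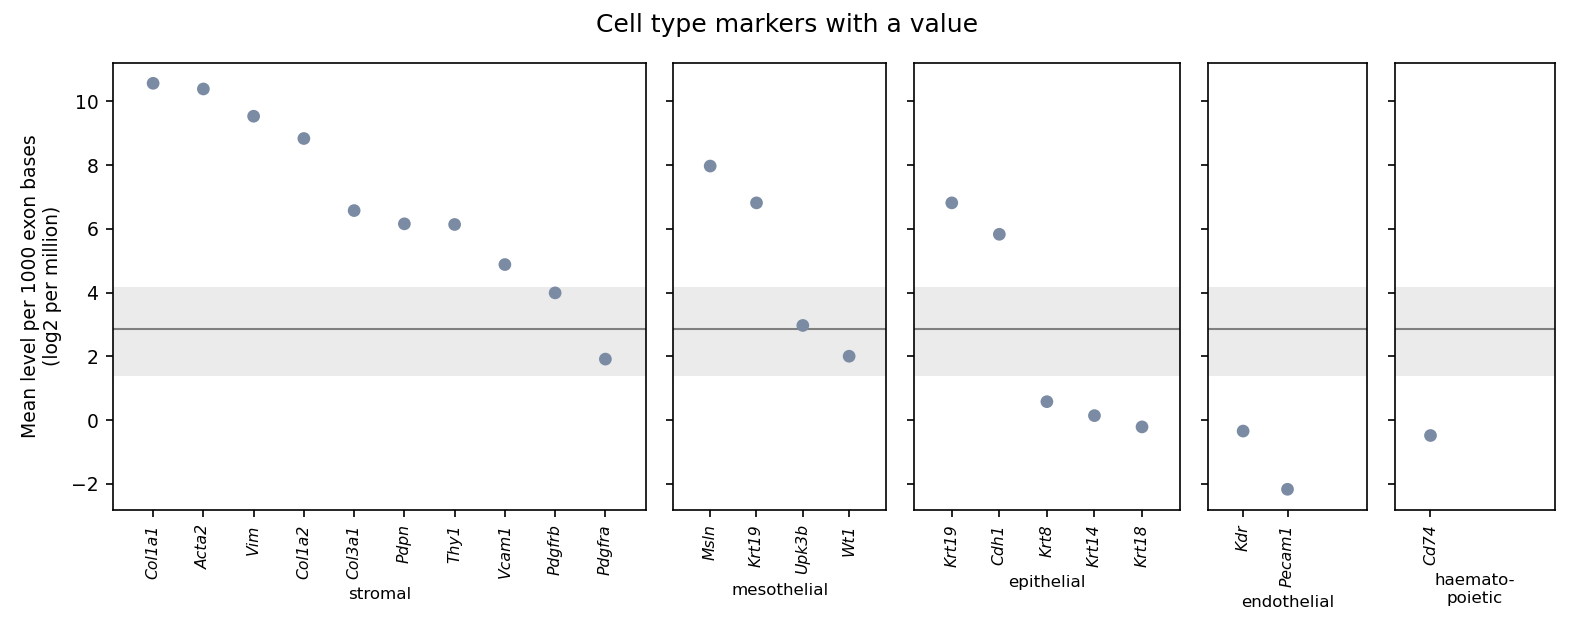
Mean level per 1000 exon bases, on a log2 scale, of each cell type marker with a value, by list. Stromal markers reach the highest levels, Msln, Krt19 and Cdh1 lie above the quartile band of all genes, and the endothelial and haematopoietic markers with a value lie below it.

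The place of a gene depended on the length it was divided by. F11r and Jup were in the top quartile, and Pkp1 and Dsp in the lowest, under each of the 4 ways of counting length. Pkp4 was at percentile 53.7 per exon base but at 34.1 per coding base. Tjp1 was at 87.9 per exon base and at 72.9 per coding base. Jam2 was at 22.1 per exon base, at 30.7 with no correction and at 36.3 per coding base. Per coding base Jam2 lay above Pkp4 and Pkp2 (27.1), so that the grouping by 3 did not hold there. Tjp1 was also outside the top quartile per coding base, and Jam2 was outside the lowest quartile with no correction. Jam3 was at 52.1 per exon base and at 43.3 without any correction.

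**Figure D4:**
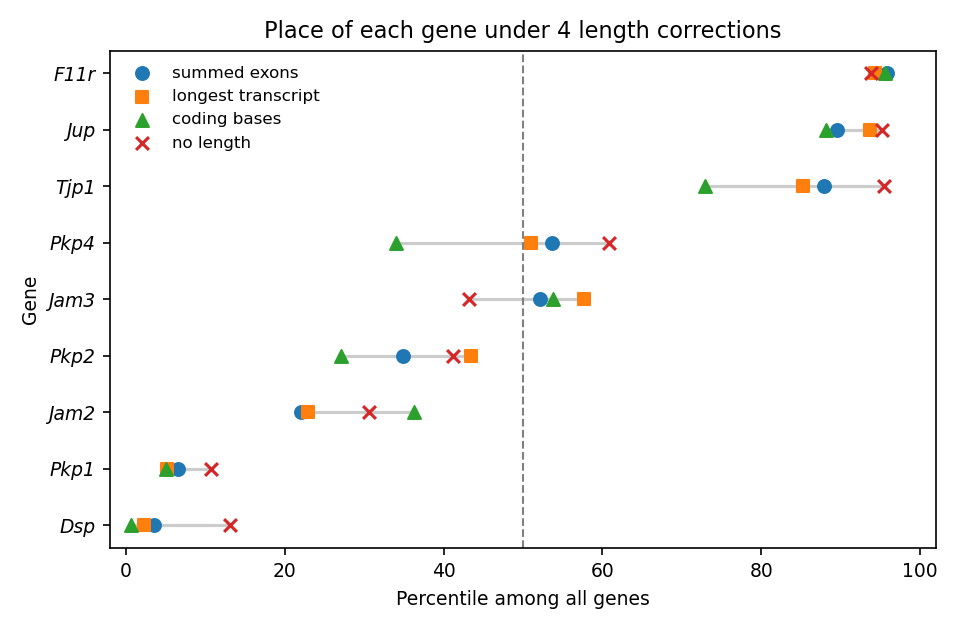
Percentile of each gene among all genes when its mean is divided by summed exons, by the longest transcript, by coding bases or not at all. Pkp4 and Jam3 cross the dashed line at percentile 50, and the other genes stay on their side of it.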

How the data were processed

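RNA of mSSC-YFP cells, 4 samples with DMSO and 4 with BMS493 for 48 h, was sequenced with stranded mRNA libraries per the paper's methods, whereas the protocol in the labels describes array and qPCR work. The authors used STAR 2.3.0e on mm10, assigned unique alignments to Ensembl annotation through Rsubread, and normalized with weighted trimmed means (TMM). The deposited table gives 1 mean log2 normalized level per gene over all samples, with decimal commas, and this authors' mean is the only measurement used. Raised to the power of 2, the means sum to 989369, so that the units are close to CPM. The table's 4 further numeric columns hold the fold change, t, p and adjusted p of the authors' comparison and were not used. The planned test of BMS493 against DMSO needs values per sample and could not be run.

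Symbols were matched to GENCODE M21 (GRCm38, the assembly of mm10), 11783 directly and 604 through an older symbol, and lengths were available for 98.4% of genes. Levels per 1000 bases use the union of each gene's exons. A percentile is the share of genes with a lower level. Promoters are RefSeq entries, found for 5 of the 9 genes. Python 3.11.15 with pandas 2.3.3 was used, and the calculation was tested on simulated data. Members and gene lists were chosen with earlier results of these data known. Every member is named, and other genes come from the lists of tight junction, desmosome, adherens junction, filament and marker genes, with at least the 3 highest of a list (or all with a value) named where its genes are described, and never by fold change. The counts include 1 gene whose level is not reported or plotted here. Alternatives were other lengths and limits on low levels.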

Additional observations from a re-analysis of the deposited data

How the results depend on the processing

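The count of genes above the median was 5 per exon base and also 5 per base of the longest transcript. It was 4 per coding base, 4 with no correction and 4 when ranked among genes with a mean log2 level of at least 1. Ranked among genes with a mean of at least 3, it was 3, which follows from the higher median of those genes. In the order of the 9 genes, 7 kept their place with the longest transcript, 5 with coding bases and 5 with no correction. Coding bases were added after the data were seen, in place of RefSeq protein lengths. Of the 64 tight junction genes 36 had a value, and 34 with symbols as written only or with a mean of at least 1. Of the 18 desmosome genes 8 had a value, and 7 with a mean of at least 1.

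No paired analysis was possible because per-sample values were not analysed. For the same reason leaving out a sample, another normalization and another filter were not run, and identity between proteins was not run for want of their sequences. Depth per sample, the count behind each level and the spread between samples were not analysed, so low levels such as those of Dsp and Pkp1 have an unknown precision.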
